A study of Mus musculus with 2 samples.

Results

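The genes described here encode proteins of the spliceosome and regulators of splicing. They were chosen by name among the mouse gene symbols of the deposited tables: symbols that begin with Snrp, Sf3a, Sf3b, Srsf or Hnrnp, with Lsm or Prpf and a digit, and the genes U2af1, U2af2, Srpk1, Srpk2, Tra2a, Tra2b and Ptbp1, without symbols that end in -ps. The rule found 85 members among 35275 gene IDs, and 82 of them were expressed, which is used here for genes that reached an FPKM of 1 in either library. FPKM corrects the number of fragments or reads for the length of the transcript and the size of the library. RNA was taken from the livers of 2 C57BL/6 mice of 10 months, and the 2 libraries are labelled wild type and LTsc1KO. The LTsc1KO mouse carries the genotype label TSC1-/-, and the series describes it as a knockout of Tsc1 restricted to the liver, a model of liver cancer with high mTORC1 activity. The driver of the recombination is not named in the labels. The series speaks of tumours, while both samples are labelled liver, so whether a tumour was sampled is not known here. With 1 library per genotype no difference has a replicate check, and all values describe these 2 livers.

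The spliceosome removes introns from transcripts and joins the exons. It is built on small nuclear RNAs wrapped in proteins: a ring of Sm proteins sits on the U1, U2, U4 and U5 RNAs, a ring of LSm proteins on U6, and each particle adds its own subunits. U2AF and the SF3A and SF3B complexes mark the branch site and the end of the intron, and PRPF proteins drive the assembly of the U4/U6.U5 particle and the catalytic steps. SR proteins mostly promote the use of exons they bind, once phosphorylated by SRPK kinases, while many hnRNP proteins, Ptbp1 among them, repress exons. Most of these proteins are made in essentially every cell type, hepatocytes included.

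The whole-read totals recovered from the values were 27919645 for the wild-type-labelled library and 29351163 for the LTsc1KO-labelled library. Tsc1 itself did not separate the labels, with an FPKM of 4.90 in the wild-type-labelled library and 4.79 in the LTsc1KO-labelled library, a log2 ratio of -0.03 that stood at -0.59 after the median centring described next. In median centring, the FPKM of the LTsc1KO-labelled library are divided by the median ratio of the 10067 genes that reached an FPKM of 1 in each library. This median was 0.72 on the log2 scale. The expression limit and the 1 added to each FPKM are applied afterwards, so log2 ratios of low genes shift by less. The centred values hold 11851 expressed genes and 81 expressed members. Hepatocyte markers were abundant in both libraries, all 5 above an FPKM of 1, with summed FPKM of 33520 and 23100. The libraries also differed in markers of other cells: the 5 skeletal muscle markers summed to 2446 in the wild-type-labelled library and 2.44 in the LTsc1KO-labelled library, where Mb and Tnnt3 were at 0. The sums went from 41.6 to 592 for 5 cholangiocyte markers (575.3 of it Spp1), from 183 to 25.01 for stellate cells, from 579 to 56.2 for erythroid cells and from 33.4 to 3.04 for B cells. Single genes carried 2 of these shifts. Des held 152.4 and 0.462 of the stellate sums, while 1 of the 5 stellate markers, Rgs5, went the other way, from 4.71 to 18.6. The 5 skeletal muscle markers were lower in the same direction as Des, and the part of muscle RNA in the value of Des was not tested. Ighm held 31.7 and 2.12 of the B cell sums. Smaller shifts were seen for neutrophils (128 to 62.2), endothelial cells (17.0 to 32.8), Kupffer cells (26.0 to 22.8) and T cells (1.35 to 1.90). The 5 cycling markers Birc5, Ccnb1, Cdk1, Mki67 and Top2a were all higher in the LTsc1KO-labelled library, with sums of 1.54 and 99.8. The part of these shifts in the values of the splicing genes was not tested, and in bulk tissue fewer cells of a type and less RNA per cell cannot be told apart.

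Most splicing genes had higher FPKM in the LTsc1KO-labelled library, by an amount close to that of other genes, so that they divided about evenly after median centring. Log2 ratios are given as LTsc1KO over wild type, on the log2(FPKM + 1) scale used throughout. Of the 82 expressed members 70 had a positive log2 ratio and 12 a negative one. The lower quartile of all expressed genes was 0.11, so most of them had a positive log2 ratio as well. Their exact share was not counted, and the later counts of positive genes are given without it. After median centring the split of the members was 39 against 42 of 81. The members' median log2 ratio was 0.68, against 0.70 over all 12395 expressed genes, and after median centring it was -0.03, against 0.07 over all expressed genes. At least 2-fold higher values were found for 21 of the 82 members (25.6%), below the background of 35.6% of all expressed genes. No member was at least 2-fold lower, a call that 6.15% of all expressed genes met. After median centring, 5 of 81 members were at least 2-fold higher (6.17%, background 15.6%), namely Hnrnpf, Lsm8, Prpf19, Ptbp1 and Srpk1. Under the same scaling 3 members were at least 2-fold lower (3.70%, background 12.7%), namely Hnrnpd, Hnrnph3 and Lsm6.

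The members lay closer together than expressed genes in general. Differences of less than 2-fold were seen for 61 members (74.4%) and for 58.3% of all expressed genes. The middle 50% of the members' log2 ratios ran from 0.23 to 1.00, and that of all expressed genes from 0.11 to 1.26. The 2 sets are unlike in how they passed the expression limit. Of the 12395 expressed genes 10067 reached an FPKM of 1 in each library, while among the 82 members only 1, Lsm11, reached it in a single library. Genes that pass in a single library differ between the libraries by selection, and all backgrounds given here include them. Their part in the wider spread of expressed genes was not tested. Just past the 2-fold limit were Snrpd3 at 1.01 and Sf3a3 at 1.04, and just short of it were Tra2a at 0.99 and Hnrnpk at 0.96. The 95% counting intervals of the FPKM ratios, which cover counting error alone and no difference between animals, lay wholly above 1 for 68 members (background 72.9%) and wholly below 1 for 8 (background 17.3%).

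**Figure D1:**
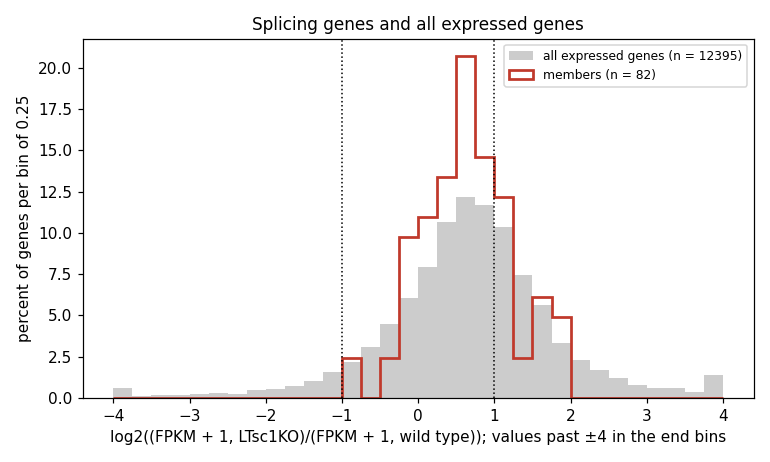
Log2 ratios of the 82 expressed splicing genes (red outline) and of all 12395 expressed genes (grey), LTsc1KO over wild type on the log2(FPKM + 1) scale, as percent of genes per bin of 0.25. Dotted lines mark 2-fold, and the members' median of 0.68 lies next to the 0.70 of all expressed genes, with no member past 2-fold on the lower side. After median centring the medians are -0.03 and 0.07.

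Splicing genes were expressed above the typical gene in both livers, in the comparison per transcript length that FPKM allows. Their median FPKM was 18.9 in the wild-type-labelled library and 32.8 in the LTsc1KO-labelled library, against 6.20 and 11.7 for all expressed genes. Together they held 0.400% of the reads in the wild-type-labelled library and 0.635% in the LTsc1KO-labelled library. The most abundant in the wild-type-labelled library were Srsf5, Hnrnpk, Hnrnpa2b1, Hnrnpa3 and Srsf11, and in the LTsc1KO-labelled library they were Hnrnpk, Hnrnpa2b1, Hnrnpa3, Hnrnpf and Srsf5. Srsf5, an SR protein, had FPKM of 150.3 and 129, and Hnrnpk, which binds C-rich RNA, 149.7 and 293. The order of the members was much alike in the 2 livers, with a Spearman correlation of 0.875 across the 82 genes, which is a description over genes that share both libraries. Members that were low in the wild-type-labelled library had the higher log2 ratios (Spearman -0.395), and so had expressed genes in general (-0.354). The wild-type FPKM is also in the denominator of the log2 ratio, which by itself favours a negative sign, so no trend with level is read from these values. Transcript length had little relation to the log2 ratio, at 0.083 for members and 0.119 for all expressed genes.

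**Figure D2:**
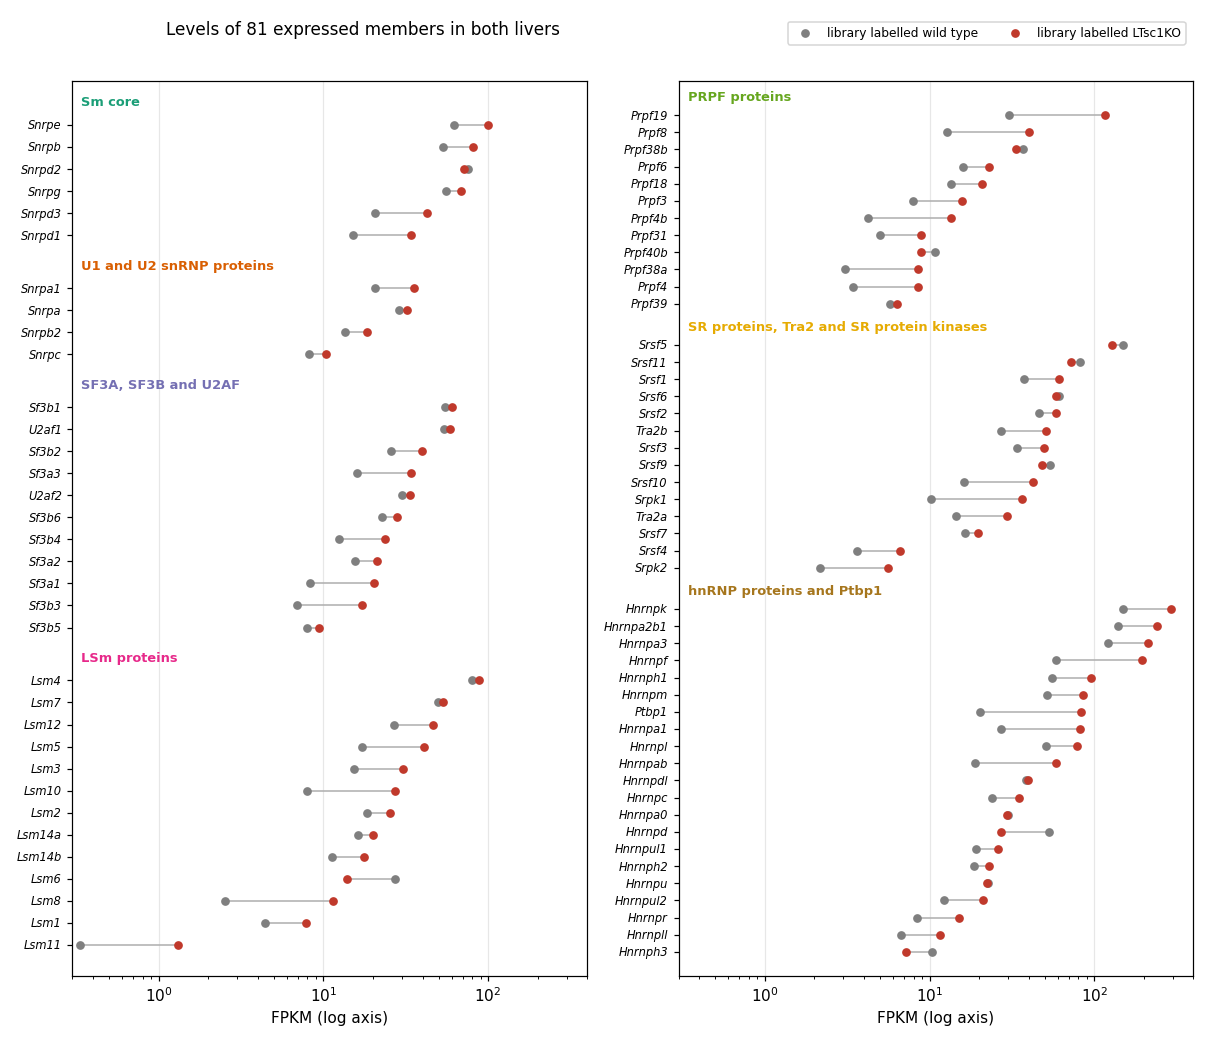
FPKM (log axis) of 81 of the 82 expressed members in the wild-type-labelled library (grey) and the LTsc1KO-labelled library (red), 1 point per library, grouped by role and ordered by level in the LTsc1KO-labelled library. Without rescaling, red lies to the right of grey for 69 members, and Hnrnpd, Lsm6 and Hnrnph3 show the widest gaps in the other direction.

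Promoter sequences of the members at the ends of the range are shown here, because these genes differed most between the livers, in opposite directions. The windows hold the 250 bases before the RefSeq transcription start on GRCm38.p6 and are written 5′ to 3′ on the strand of the gene. Capitals mark matches to the motifs searched on both strands, which do not overlap in these windows: the E-box CACGTG, the NRF1 motif of GCGC on either side of any 2 bases, the ETS motif CCGGAAG, the SP motif GGGCGG, the box with the letters CCAAT, the YY1 motif AAGATGGC and the cyclic AMP element TGACGTCA. Ptbp1, Prpf19 and Lsm8 had the highest log2 ratios, and Hnrnpd and Lsm6 the lowest.
Ptbp1, chr10:79854182-79854431, plus strand: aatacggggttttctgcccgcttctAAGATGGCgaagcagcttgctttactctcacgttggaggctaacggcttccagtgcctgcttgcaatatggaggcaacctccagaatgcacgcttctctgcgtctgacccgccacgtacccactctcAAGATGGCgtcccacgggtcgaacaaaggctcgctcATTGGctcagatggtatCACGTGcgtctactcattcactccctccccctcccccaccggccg
Prpf19, chr19:10894981-10895230, plus strand: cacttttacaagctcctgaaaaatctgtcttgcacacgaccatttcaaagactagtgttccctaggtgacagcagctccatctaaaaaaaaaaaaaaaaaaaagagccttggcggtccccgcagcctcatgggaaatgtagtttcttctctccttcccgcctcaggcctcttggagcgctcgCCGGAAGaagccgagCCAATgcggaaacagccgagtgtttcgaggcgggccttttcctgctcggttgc
Lsm8, chr6:18848385-18848634, plus strand: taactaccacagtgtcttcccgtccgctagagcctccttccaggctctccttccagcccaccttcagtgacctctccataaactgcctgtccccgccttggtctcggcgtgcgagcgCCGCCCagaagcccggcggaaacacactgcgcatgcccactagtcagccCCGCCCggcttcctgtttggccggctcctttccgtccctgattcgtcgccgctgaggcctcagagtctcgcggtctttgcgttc
Hnrnpd, chr5:99978939-99979188, minus strand: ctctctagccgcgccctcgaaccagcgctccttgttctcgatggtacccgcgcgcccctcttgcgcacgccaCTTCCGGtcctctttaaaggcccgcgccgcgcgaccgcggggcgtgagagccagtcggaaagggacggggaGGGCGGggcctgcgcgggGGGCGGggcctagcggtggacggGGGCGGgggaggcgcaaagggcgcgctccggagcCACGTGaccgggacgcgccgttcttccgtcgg
Lsm6, chr8:78821153-78821402, minus strand: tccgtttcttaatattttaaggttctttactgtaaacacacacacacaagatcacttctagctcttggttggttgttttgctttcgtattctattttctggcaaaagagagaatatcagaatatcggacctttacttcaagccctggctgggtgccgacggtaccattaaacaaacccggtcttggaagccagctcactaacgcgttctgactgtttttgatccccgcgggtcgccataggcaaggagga

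The Ptbp1 window held 2 YY1 matches, 1 CCAAT on the reverse strand and 1 E-box. The Prpf19 window held 1 ETS match and 1 CCAAT. In the Lsm8 window 2 SP matches were found, both on the reverse strand. That of Hnrnpd was the richest in GC, at 74.4%, with 3 SP matches, 1 ETS match on the reverse strand and 1 E-box, while that of Lsm6 held 44.8% GC and none of the 7 motifs. RefSeq windows were matched for 70 of the 82 expressed members, 19 of them at least 2-fold higher. Among the 70, ETS matches were found in 18 (25.7%), against 14.3% of 9539 expressed genes and 7.11% of all 27025 genes with a window. NRF1 matches were in 14 (20%, against 10.7% and 5.12%), and CCAAT in 32 (45.7%, against 36.8% and 34.3%). SP matches were in 47 (67.1%, against 58.7% and 33.0%) and the E-box in 6 (8.57%, against 8.63% and 6.02%). YY1 matches were in 2 (2.86%, against 2.02% and 1.57%) and the cyclic AMP element in 3 (4.29%, against 2.72% and 1.61%). Between the 19 higher members and the 51 others, NRF1 matches were in 1 and 13 (5.26% and 25.5%) and SP matches in 10 and 37 (52.6% and 72.5%). ETS matches were in 7 and 11 (36.8% and 21.6%) and CCAAT in 11 and 21 (57.9% and 41.2%). The E-box was in 1 and 5, YY1 in 1 and 1, and the cyclic AMP element in 0 and 3. The higher members' windows had a median of 57.2% GC and 14 CpG dinucleotides, those of the others 61.6% and 22. The members' windows had a median GC content of 60.4% and 20 CpG dinucleotides, against 59.6% and 16 in expressed genes. These matches describe letters in the windows and were not tested against the log2 ratios.

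The Sm core, the ring shared by U1, U2, U4 and U5, split by subunit. Its 6 expressed members had a median log2 ratio of 0.64, or -0.06 after median centring, and 2 were at least 2-fold higher (33.3%, background 35.6%), with none past 2-fold in either direction after centring. Snrpd1 had an FPKM of 15.1 in the wild-type-labelled library and 34.1 in the LTsc1KO-labelled library, a ratio of 2.25 (interval 1.99 to 2.56). Snrpd3 had 20.6 and 42.4, a ratio of 2.06 (1.91 to 2.22). Snrpd2, which pairs with Snrpd1 in the ring, was instead nearly level at 74.96 and 71.8, a log2 ratio of -0.06, and -0.77 after median centring. Snrpe (62.1 and 99.6, log2 ratio 0.67), Snrpb (53.0 and 81.3, 0.61) and Snrpg (55.9 and 68.7, 0.29) lay between, and stood at -0.03, -0.10 and -0.41 after median centring. The FPKM of Snrpd1 over that of Snrpd2 thus went from 0.202 to 0.475, a ratio of ratios of 2.35 (interval 2.05 to 2.69), a measure that no scaling of a library can move. For Snrpd3 over Snrpd2 the ratio of ratios was 2.15 (interval 1.96 to 2.36).

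The seventh Sm protein gene, Snrpf, was listed at 0 in the wild-type-labelled library and at 0.0791 in the LTsc1KO-labelled library, or 2 reads, while the 6 other ring subunits had FPKM of at least 15.1 in both. Of the 50-base words in its annotated transcripts, 89.5% also occur in 5 other genes, most in Ccdc38 (58.5%), whose own FPKM were 0.210 and 0.125. The sources used here do not say how reads that match several genes were counted, so the low values of Snrpf are uncertain. Snrpn, the tissue-restricted relative of Snrpb, was not analysed here, and Snrpert, annotated as a processed pseudogene, was at 0 in both libraries.

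The proteins that belong to U1 or U2 alone differed little. None of the 4 was at least 2-fold higher or lower, and their median log2 ratio was 0.35, or -0.30 after median centring. Snrpa, which binds a stem-loop of the U1 RNA, had FPKM of 28.8 and 32.3, a log2 ratio of 0.16 (-0.53 after median centring), and Snrpc, which helps U1 to hold the start of the intron, 8.17 and 10.3, 0.30 (-0.33). The U2 proteins Snrpa1 and Snrpb2 bind their RNA together. Snrpa1 had 20.7 and 35.5, a ratio of 1.71 (1.54 to 1.90), and Snrpb2 13.6 and 18.3, a ratio of 1.35 (1.19 to 1.53). Snrpa1 over Snrpb2 gave a ratio of ratios of 1.27 (interval 1.08 to 1.49).

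Among the factors that define the branch site, Sf3b3 and 2 SF3A subunits were at least 2-fold higher in the LTsc1KO-labelled library and U2AF was close to level, with none of the 11 members 2-fold apart after median centring. The 3 higher members are 27.3% of the group, against a background of 35.6%. The median log2 ratio was 0.41 with all 11 positive, and -0.26 after median centring. Sf3b3, a scaffold of SF3B, had FPKM of 6.96 and 17.1, a ratio of 2.46 (2.27 to 2.67). The SF3A subunits Sf3a1 (8.35 and 20.2, ratio 2.42) and Sf3a3 (15.9 and 33.9, ratio 2.13) also passed 2-fold, and the SF3B subunit Sf3b4 (12.4 and 23.7, log2 ratio 0.88) came next. Sf3b1, the subunit that contacts the branch site and is mutated in several human cancers, stood at 54.4 and 60.7, a ratio of only 1.11 (1.07 to 1.17), and its log2 ratio of 0.15 became -0.55 after median centring. The U2AF subunits had similar ratios: U2af1, which reads the AG at the end of the intron, had 53.7 and 58.4, and U2af2, which reads the pyrimidine tract, 30.1 and 33.7. Their log2 ratios of 0.12 and 0.16 became -0.58 and -0.53 after median centring, and U2af1 over U2af2 gave a ratio of ratios of 0.972 (interval 0.881 to 1.07), whose interval holds 1. The remaining subunits Sf3b2, Sf3a2, Sf3b6 and Sf3b5 had log2 ratios of 0.59, 0.41, 0.29 and 0.21, each of them negative after median centring (-0.42 to -0.10).

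LSm proteins spread more widely than the groups above, from Lsm8 at the top to Lsm6 at the bottom. The 13 members had a median log2 ratio of 0.72 (-0.01 for the 12 expressed after median centring), 3 were at least 2-fold higher (23.1%, background 35.6%) and 12 positive. After centring 1 was higher (8.33%, background 15.6%) and 1 lower (8.33%, background 12.7%). Lsm11 counted as expressed only through the LTsc1KO-labelled library, where it was the higher. Lsm2 to Lsm8 form the nuclear ring on U6, and Lsm1 takes the place of Lsm8 in the cytoplasmic ring that promotes removal of the mRNA cap. Lsm8 (ENSMUSG00000044155; chromosome 6, 18848579 to 18855751, plus strand, GRCm38) had FPKM of 2.51 and 11.4, from 117 and 558 reads, a ratio of 4.54 (3.71 to 5.59). Lsm1 had 4.40 and 7.90, a ratio of 1.79 (1.55 to 2.08), so that Lsm8 was the lower of the pair in the wild-type-labelled library and the higher in the LTsc1KO-labelled library. The ratio of ratios for Lsm8 over Lsm1 was 2.53 (interval 1.98 to 3.23). Of the subunits common to both rings, Lsm5 had 17.3 and 40.8 (ratio 2.36) and Lsm3 15.4 and 30.6 (log2 ratio 0.95). Lsm7 stood at 49.7 and 52.9, a log2 ratio of 0.09, or -0.61 after median centring. The ring subunits Lsm2 (18.4 and 25.4) and Lsm4 (79.3 and 88.2) had log2 ratios of 0.44 and 0.15, or -0.24 and -0.55 after median centring. Lsm6 (ENSMUSG00000031683; chromosome 8, 78804865 to 78821140, minus strand) went the other way with 27.3 and 13.9, 1.97-fold lower (1.79 to 2.16) in the LTsc1KO-labelled library. The subunits of this single ring therefore ranged from -0.93 to 1.82 in log2 ratio.

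Lsm10 and Lsm11 replace Snrpd1 and Snrpd2 in the U7 particle, which trims the ends of histone mRNAs. Lsm10 had FPKM of 7.97 and 27.4, a ratio of 3.43 (2.87 to 4.13). Lsm11 was the scarcest expressed member, with 0.334 and 1.31 from 40 and 165 reads, a ratio of 3.92 (2.76 to 5.69). Its log2 ratio, with 1 added to each FPKM, was 0.79. Because Lsm11 counted as expressed only through the LTsc1KO-labelled library, its direction was fixed by that filter. Against the subunits they replace, the ratios of ratios were 1.52 (interval 1.23 to 1.89) for Lsm10 over Snrpd1 and 4.10 (interval 2.89 to 5.82) for Lsm11 over Snrpd2. The latter carries the same limit of the filter. The 5 cycling markers, whose sums were 1.54 and 99.8 in these libraries, stood higher as well, and their part in the values of the U7 subunits was not tested. The cytoplasmic proteins Lsm14a (16.3 and 19.9) and Lsm14b (11.3 and 17.6), components of mRNA granules, had log2 ratios of 0.28 and 0.59, which became -0.39 and -0.07 after median centring. Lsm12 had 26.9 and 46.2, a log2 ratio of 0.76.

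PRPF proteins had the highest median of the role groups, 0.92 over 13 members, or 0.26 after median centring. Values at least 2-fold higher were found for 6 of them (46.2%, background 35.6%) and for 1, Prpf19, after centring (7.69%, background 15.6%). The group's summed FPKM went from 159 to 326. Prpf19 (ENSMUSG00000024735; chromosome 19, 10895231 to 10909559, plus strand), the ubiquitin ligase at the centre of the complex that activates the spliceosome, had 30.4 and 116, a ratio of 3.81 (3.59 to 4.05). Prpf8, the large protein that lines the catalytic centre, had 12.7 and 40.2, a ratio of 3.16 (2.99 to 3.34). The kinase Prpf4b had 4.24 and 13.4, a ratio of 3.17 (2.87 to 3.50). All 3 were among the 10 members with the highest log2 ratios. The proteins of the U4/U6.U5 particle followed in order of log2 ratio: Prpf4 at 1.10, Prpf3 at 0.92, Prpf31 at 0.73 and Prpf6 at 0.51, the last of which stood at -0.17 after median centring. Prpf18, a factor of the later catalytic step, and Prpf39, a relative of a yeast U1 protein, had log2 ratios of 0.58 and 0.14, or -0.09 and -0.46 after median centring.

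The lowest log2 ratios among the PRPF proteins were those of Prpf40b and Prpf38b. Prpf38a, needed for activation of the spliceosome, had FPKM of 3.05 and 8.49, a ratio of 2.78 (2.35 to 3.30), whereas Prpf38b had 37.1 and 33.3, 1.11-fold lower (1.04 to 1.19). Their ratio of ratios was 3.10 (interval 2.59 to 3.70). Prpf40b, a relative of a yeast U1 protein, had 10.7 and 8.84, 1.22-fold lower (1.08 to 1.38).

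The SR protein kinases Srpk1 and Srpk2 were at least 2-fold higher in the LTsc1KO-labelled library. Most SR proteins were closer to level in the deposited values. Of the 14 members in this group 3 were at least 2-fold higher (21.4%, background 35.6%), and 1, Srpk1, was after centring (7.14%, background 15.6%). Srpk1 (ENSMUSG00000004865; chromosome 17, 28587648 to 28622709, minus strand) had FPKM of 10.1 and 36.6, a ratio of 3.61 (3.28 to 3.96), and Srpk2 2.18 and 5.58, a ratio of 2.56 (2.28 to 2.89). After centring their log2 ratios were 1.06 and 0.47. The difference was larger for Srpk1, with a ratio of ratios of 1.41 (interval 1.21 to 1.63). Of their substrates, the 10 expressed Srsf genes had a median log2 ratio of 0.30, or -0.39 after median centring, and 4 were negative. Srsf10, an SR protein that acts as a repressor when dephosphorylated, was the only Srsf gene at least 2-fold higher, with 16.3 and 42.3, a ratio of 2.60 (2.40 to 2.83). Srsf5 (150.3 and 129, log2 ratio -0.22) and Srsf11 (81.4 and 71.9, -0.18) had the lowest ratios, followed by Srsf9 (53.9 and 48.5, -0.15) and Srsf6 (61.0 and 58.5, -0.06). After centring these 4 stood at -0.93, -0.88, -0.85 and -0.76, farther from level than Srpk2.

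The classical SR proteins lay between. Srsf1 had FPKM of 37.6 and 61.2, a log2 ratio of 0.69, and Srsf2 46.2 and 58.2, 0.33. Srsf3, which is studied in liver for its role in hepatocyte maturation, had 34.0 and 49.4, 0.52, and Srsf7 16.3 and 19.8, 0.26. After median centring these 4 log2 ratios became -0.01, -0.37, -0.17 and -0.41. Within pairs the shifts were small, with ratios of ratios of 1.29 (interval 1.18 to 1.41) for Srsf1 over Srsf2 and 1.196 (interval 1.08 to 1.32) for Srsf3 over Srsf7. The Tra2 proteins, activators of exons with purine-rich sites, stood higher than most SR proteins: Tra2a had 14.4 and 29.5, a log2 ratio of 0.99, and Tra2b 27.1 and 50.7, 0.88. Their ratio of ratios was 1.10 (interval 0.980 to 1.23), with an interval that holds 1. Srsf4 had 3.65 and 6.65, a log2 ratio of 0.72. Srsf12 was below the expression limit, at 0.0380 and 0.705 from 2 and 39 reads.

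The hnRNP proteins and Ptbp1 held both the highest and the lowest log2 ratio of all expressed members. The 21 genes had a median of 0.72, or 0.06 after median centring, with 4 at least 2-fold higher (19.0%, background 35.6%) and 17 positive. After centring 2 were at least 2-fold higher (Ptbp1 and Hnrnpf, 9.52%, background 15.6%) and 2 lower (Hnrnpd and Hnrnph3, 9.52%, background 12.7%). Ptbp1 (ENSMUSG00000006498; chromosome 10, 79854427 to 79864771, plus strand), a repressor of exons next to pyrimidine-rich sites, had FPKM of 20.3 and 82.8, from 739 and 3167 reads, a ratio of 4.08 (3.76 to 4.42). Hnrnpd (ENSMUSG00000000568; chromosome 5, 99955935 to 99978938, minus strand), known as AUF1 for its binding to AU-rich elements in mRNAs, had 53.2 and 27.2, from 1864 and 1001 reads, 1.96-fold lower (1.81 to 2.12) in the LTsc1KO-labelled library. Its close relative Hnrnpab had 18.8 and 58.5, a ratio of 3.11 (2.90 to 3.34). Hnrnpd was thus the more abundant of these relatives in the wild-type-labelled library and Hnrnpab in the LTsc1KO-labelled library. Hnrnpab per Hnrnpd went from 0.354 to 2.15, a ratio of ratios of 6.08 (interval 5.48 to 6.75), the largest of the 22 pairs computed. Hnrnpdl, the other relative, stood between, with a ratio of ratios of 2.02 (interval 1.82 to 2.23) over Hnrnpd.

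The hnRNP F and H proteins bind runs of G and divided in the same manner. Hnrnpf (ENSMUSG00000042079; chromosome 6, 117900324 to 117925622, plus strand) had FPKM of 58.4 and 195, a ratio of 3.34 (3.19 to 3.50). Hnrnph1 had 55.5 and 95.4, a log2 ratio of 0.77, and Hnrnph2 18.5 and 22.8, 0.29, or -0.39 after median centring. Hnrnph3 had 10.3 and 7.15, 1.45-fold lower (1.24 to 1.69). Hnrnpf was about level with Hnrnph1 in the wild-type-labelled library, at 1.05 Hnrnpf per Hnrnph1, and stood at 2.05 in the LTsc1KO-labelled library. The ratios of ratios of Hnrnpf were 1.94 (interval 1.81 to 2.08) over Hnrnph1, 2.71 (interval 2.49 to 2.95) over Hnrnph2 and 4.83 (interval 4.12 to 5.67) over Hnrnph3. Of the 50-base words of Hnrnpf 61.9% occur in 11 other genes, of which the closest, Gm6430, was at 0 and 0.0546, so the exact level of Hnrnpf is uncertain.

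In the hnRNP A family, Hnrnpa1, a repressor of splice sites, had FPKM of 27.0 and 82.1, a ratio of 3.04 (2.86 to 3.23). Its more abundant relatives differed by less: Hnrnpa2b1 had 139.7 and 239 (log2 ratio 0.77) and Hnrnpa3 121 and 212 (0.80). Hnrnpa0 was level at 29.96 and 29.6, a log2 ratio of -0.02, or -0.70 after median centring. Hnrnpa1 was higher relative to each of them in the LTsc1KO-labelled library, with ratios of ratios of 1.78 (interval 1.67 to 1.90), 1.74 (interval 1.62 to 1.86) and 3.08 (interval 2.83 to 3.35) in that order. Hnrnpa1 shares 28.2% of its 50-base words with 20 other genes and Hnrnpa3 27.1% with 46, and their closest copies, Gm10052 at 0 in both libraries and Gm5641 at 0.0958 and 0.137, were scarce. Hnrnpl and Hnrnpll, both binders of CA-rich RNA, differed little from each other: Hnrnpl had 51.1 and 78.5, Hnrnpll 6.73 and 11.6, and their ratio of ratios was 0.888 (interval 0.791 to 0.996).

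The remaining hnRNP genes lay within 2-fold. Hnrnpk, the most abundant member in the LTsc1KO-labelled library, had a ratio of 1.96 (1.89 to 2.02). The log2 ratios of Hnrnpr, Hnrnpul2 and Hnrnpm were 0.77, 0.75 and 0.72. Those of Hnrnpc, a protein that packages nascent transcripts, and Hnrnpul1 were 0.53 and 0.43, and became -0.16 and -0.25 after median centring. Hnrnpu, a scaffold protein of the nucleus, was level at 22.7 and 22.2, a log2 ratio of -0.03, or -0.70 after median centring, and Hnrnpdl had 38.3 and 39.4, 0.04, or -0.65.

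**Figure D3:**
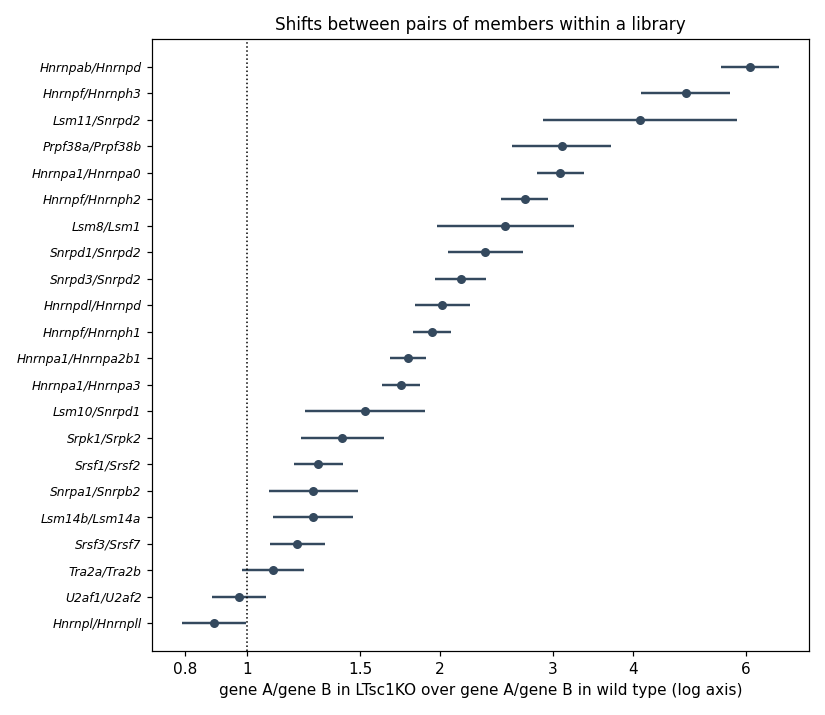
Ratio of ratios (log axis) for 22 pairs of members: gene A over gene B in the LTsc1KO-labelled library divided by the same in the wild-type-labelled library, with 95% intervals for counting error only. The dotted line at 1 means an equal balance in both livers; Hnrnpab over Hnrnpd lies farthest out at 6.08, and the intervals of Tra2a over Tra2b and U2af1 over U2af2 hold 1.

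Close copies of transcripts were found for few other members. In 12 of the 85 members more than 20% of the 50-base words also occur in another gene, and for 7 of the 12 the closest copy is a gene with a Gm number at an FPKM of at most 0.373. Hnrnpab shares 23.9% of its words, nearly all with Phykpl at 6.21 and 8.47, and Srsf2 20.7%, most with Mettl23 at 22.5 and 22.1. Ptbp1 shares 18.3%. Without strand in the sources used here, reads of overlapping genes cannot be told apart.

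Other genes of the splicing pathway, outside the naming rule, were described from lists of its particles and complexes. Together their 141 expressed genes held 40 that were at least 2-fold higher (28.4%, background 35.6%) and 1 lower (background 6.15%), with a median log2 ratio of 0.62, close to the members' 0.68. After centring 5 of 141 were at least 2-fold higher (3.55%, background 15.6%) and 10 lower (7.09%, background 12.7%). The other proteins of the U4/U6.U5 particle stood highest: 10 of 13 were at least 2-fold higher (76.9%, background 35.6%) and all 13 positive, with a median of 1.11, although none was 2-fold apart after median centring (median 0.43). Usp39, which helps to assemble the particle, had FPKM of 10.6 and 35.2, and Eftud2, the GTPase that partners Prpf8, 16.9 and 54.6. At the low end of that list were Sart1 (log2 ratio 0.09) and Snrnp27 (0.32), which stood at -0.53 and -0.36 after median centring. With the 5 PRPF proteins of the particle added, 12 of 18 were at least 2-fold higher (background 35.6%), all 18 were positive and the median was 1.09, or 0.40 after median centring.

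Proteins of the PRP19 and catalytic complexes had 8 of 24 genes at least 2-fold higher (33.3%, near the background of 35.6%) and a median of 0.77, or 0.13 after median centring, where 2 were higher (8.33%, background 15.6%). The isomerase Ppil1 (1.84) and Snw1 (1.71) led, and Dhx16 (-0.01) and Ppie (0.22) were lowest. The U2 partners had 4 of 12 higher (33.3%, again near the background) and a median of 0.60 (-0.06 after median centring), led by the helicase Dhx15 at 1.57 and Puf60 at 1.18, with Htatsf1 at -0.12 and Smndc1 at -0.10. The SMN complex, which loads Sm rings onto small nuclear RNAs, had 4 of 15 higher (26.7%, background 35.6%) and a median of 0.80 (0.10 after median centring). Gemin5, which recognises those RNAs, stood at 1.56 and Gemin6 at 1.51, while Smn1 itself was at 0.01 and Gemin7 at -0.42, or -1.10 after centring.

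U1 and U11 proteins were lower in the ranking, with 2 of 13 higher (15.4%, background 35.6%) and a median of 0.34, or -0.29 after median centring. Then 1 was higher (7.69%, background 15.6%) and 2 lower (15.4%, near the background of 12.7%). Snrnp70, a core protein of the U1 particle, had FPKM of 66.5 and 37.9, a log2 ratio of -0.79, and Luc7l2 stood at -0.50. After centring they stood at -1.49 and -1.19. The proteins of the minor U11 and U12 particle Snrnp35 (1.71) and Snrnp25 (1.35) were at the other end. The exon junction complex, which marks joined exons, had 4 of 16 higher (25%, background 35.6%) and a median of 0.39, or -0.28 after median centring. Then 1 was higher (6.25%, background 15.6%) and 2 lower (12.5%, near the background of 12.7%). Its log2 ratios ran from Rnps1 at 1.90 and Magohb at 1.62 to Acin1 at -0.34 and Sap18 at -0.44. After centring Acin1 and Sap18 were at -1.02 and -1.14.

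Splicing kinases and SR-related proteins had the lowest median of the lists, 0.07, or -0.60 after median centring, with 1 of 16 higher (6.25%, background 35.6%) and 1 lower (background 6.15%). After centring none was higher and 4 were lower (25%, background 12.7%), namely Clk4 (-1.40), Clk1 (-1.22), Srpk3 (-1.09) and Rbm25 (-1.03). Tnpo3, the import receptor of SR proteins, stood at 1.42 and Thrap3 at 0.86, against -0.70 for the kinase Clk4. The lower gene was Srpk3, the relative of Srpk1 and Srpk2 known from muscle, with FPKM of 1.255 and 0.0955. It counted as expressed only through the wild-type-labelled library, so that a difference in this direction was fixed by the filter. The 5 skeletal muscle markers summed to 2446 and 2.44 in the same libraries, and their part in the value of Srpk3 was not tested. The other splicing regulators had 7 of 33 higher (21.2%, background 35.6%) and a median of 0.65, or -0.03 after median centring. Then 1 was higher (3.03%, background 15.6%) and 1 lower (3.03%, background 12.7%). Esrp1, a regulator of epithelial splicing, led with 0.0629 and 2.75, beside cholangiocyte marker sums of 41.6 and 592, whose part was not tested. Mbnl3 followed at 1.31. Both counted as expressed only through the LTsc1KO-labelled library, as did Gemin8 of the SMN list, and their direction is fixed by that filter. On the other side, Celf2 at -0.35 and Cirbp, induced by cold, at -0.49 were lowest.

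**Figure D4:**
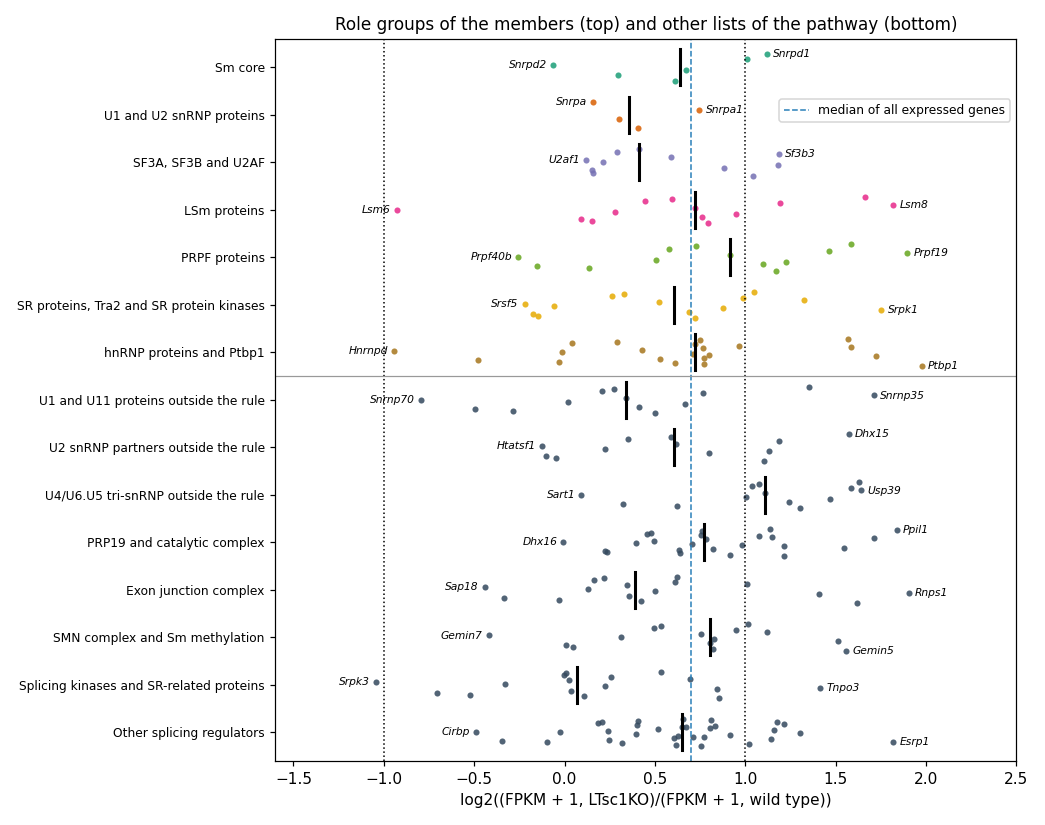
Log2 ratios (LTsc1KO over wild type, log2(FPKM + 1) scale) of the expressed members by role group (top) and of the other pathway lists (bottom), 1 point per gene, with black bars for list medians, dotted lines at 2-fold and a dashed line at the 0.70 median of all expressed genes. The PRPF proteins (0.92) and the other U4/U6.U5 proteins (1.11) lie highest. The list of splicing kinases and SR-related proteins outside the naming rule (0.07) lies lowest. After median centring these medians are 0.26, 0.43 and -0.60.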

How the data were processed

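Liver RNA was sequenced from 1 wild-type and 1 LTsc1KO mouse. Per the file headers, the values that the authors deposited are FPKM, with 1 column for each library. Bowtie 0.12.2, CASAVA 1.7 and the build mm8 are named in the submitters' processing notes. The sources used here do not give the counter, the annotation, the strand or the handling of reads with several matches.

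Of 35275 Ensembl IDs, 34490 (97.8%) matched a symbol of GENCODE M21. The tables hold no coordinates. Printed positions are on GRCm38, from GENCODE M21 and, for promoters, from RefSeq on GRCm38.p6. Log2 ratios are log2((FPKM + 1)/(FPKM + 1)), which understates the difference of low genes. With 1 library per group no p-value was computed. Ratios of FPKM, printed with intervals, have no pseudocount.

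Whole reads were recovered from the values, since an FPKM made from whole reads is a whole multiple of what 1 read is worth. Whole means equal to within rounding at the 10th printed digit. Reads were recovered for 12337 of 12395 expressed genes (99.5%), and for 0 of 84 members once values were shifted by as much as 0.1%. The length that made values whole was the rounded mean of the annotated transcripts in 37 of the 82 expressed members. Lsm3, Snrpg, Hnrnpr and Snrpd2 allow a solution with fewer reads, and the length used for them is not the rounded mean. Intervals that use them, those of the Snrpd2 pairs included, could therefore be wider. Some other members, Lsm11 among them, allow such a solution as well, but the length used there is the rounded mean. Expressed members had 40 to 17265 reads. Intervals are 95% exact binomial (Clopper-Pearson) for ratios and use the log odds ratio for ratios of ratios; they cover counting error only. Totals and reads were also tested on simulated data. No count model was used.

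The members, gene lists and role groups were chosen with earlier results of these data known. Named members are, in each role group, the 4 highest and 2 lowest log2 ratios, the genes spelled out in the rule, those below the expression limit, relatives in pairs, and the 5 most abundant of each library; of other lists, the 2 highest and 2 lowest. The pairs of Snrpd, Hnrnpd, Hnrnph3, Lsm10, Lsm11, Srpk, Tra2 and U2af genes, Hnrnpk, Clk1, Rbm25, Gemin8 and the members named from the U4/U6.U5 particle were chosen after their values were seen. The values of 1 expressed member, which is in all counts, are not reported here. Copies were sought as shared 50-base words of GENCODE M21 transcripts.

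Alternatives were a pseudocount of 0.1 or of 5, the absence of a filter, a minimum FPKM of 5, equal FPKM totals, median centring (the median ratio set to 0), scaling to the upper quartile, the 10 most abundant genes of either library left out of the totals, removal of the trend over length, the highest row per repeated symbol, and limits of 1.5-fold and 4-fold. The scripts ran in Python 3.11.15 with matplotlib 3.10.9, scipy 1.17.1, pandas 2.3.3 and numpy 2.4.6.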

Additional observations from a re-analysis of the deposited data

How the results depend on the processing

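The direction of the splicing genes rests on the scaling of the libraries. The median log2 ratio of members, 0.68 as reported, was -0.0324 after median centring and -0.0206 with upper quartile scaling. It was 0.41 with the most abundant genes left out of the totals, 0.86 with equal totals and 0.49 with a pseudocount of 5. The sign of the log2 ratio differed for 30 of 81 members under either of the first 2 scalings, for 9 of 82 with the most abundant genes left out and for 7 of 82 with equal totals, and for none under the other settings. The count of 21 members at least 2-fold higher was 5 after median centring (background 15.6%) and 5 with upper quartile scaling (background 15.8%). It was 12 with the most abundant genes left out (background 27.4%) and 11 with a pseudocount of 5 (background 17.95%). At limits of 1.5-fold and 4-fold it was 46 and 0, for which no background is given here. The count of 0 members at least 2-fold lower was 3 after median centring (background 12.7%) and 3 with upper quartile scaling (background 12.5%). It was 2 with the most abundant genes left out (background 8.52%), and 2 at a 1.5-fold limit, again without a background here. The cause of these differences between scalings was not tested. The 10 most abundant genes of each library held 22.6% of the reads of the wild-type-labelled library and 11.2% of those of the LTsc1KO-labelled library. The genes left out were the 15 in either of these sets, and their joint share of reads is not given here. Ratios of ratios within pairs do not depend on scaling. No paired analysis was possible because each genotype has 1 library and the animal numbers in the labels are not shared. Leaving out a library would leave nothing to compare. Depth limits Lsm11, at 40 and 165 reads, more than any other expressed member.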
